A study of Danio rerio with 4 samples.

Results

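The genes described are 63 rows of a TPM table of 30838 rows, chosen as genes of the motile cilium. They are the rows whose symbols begin with cfap, dnah, dnai, rsph, tekt or ift followed by a digit, together with foxj1a, foxj1b, capsla and smkr1. The last pair entered because their mutant and sibling values in these same libraries drew attention, so their values are given as a description with no test. The other 61 were selected by name, although the set was proposed after results of this comparison were known. Their counts are therefore no independent evidence that cilium genes differ between the groups.

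The libraries came from zebrafish larvae of the AB strain at 4 days post fertilization, which received no treatment. Larvae were dissociated and cells in the cd41:eGFP-low gate, used to collect hematopoietic stem and progenitor cells (HSPCs), were sorted. About 500 cells went into each library, and their cDNA was amplified before sequencing. There were 2 libraries labelled sibling and 2 labelled smu07 mutant, and the series title names the phosphate transporter gene slc20a1b. The labels do not state the lesion, the genotype mix of the siblings or whether the 2 libraries of a group came from separate clutches or sorts. All p-values therefore measure the spread between these libraries, which may be technical.

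Motile cilia are built on an axoneme of microtubule doublets. Dynein arms (dnah heavy chains and dnai intermediate chains) drive their sliding, radial spokes (rsph) regulate it, and tektins and many cilia and flagella associated proteins (cfap) line or bridge the doublets. Intraflagellar transport (ift) proteins carry cargo along the cilium and also serve the primary cilia of many cell types. In zebrafish larvae motile cilia are borne by cells of the pronephros, the olfactory pit and the lining of the central nervous system, and Foxj1 is the transcription factor that switches on their genes. Blood progenitors are not known for motile cilia.

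The depth is known as a lower bound: the smallest whole reads that account for the TPM ratios sum to 22025289 and 23286292 for the siblings, 23992816 and 24794358 for the mutants. More rows were above 0 in the mutants, 77.4% and 77.8% of all against 63.3% and 64.2% in the siblings. The HSPC markers were present, with 12 of 12 above 0 in every library and a summed level of 572 and 623 TPM in siblings versus 466 and 463 TPM in mutants. Of these 12 markers 4 were higher and 6 lower in both mutants, and of the 11 tested 1 rose (runx1) and 5 fell by limma. Of all rows 29.6% were higher and 21.6% lower in both mutants, and of all genes tested 9.91% rose and 18.6% fell. Among rows with a mean of 10 TPM and over, 19.4% were higher and 57.5% lower in both mutants. The gate transcript itga2b (cd41) read 50.8 and 66.9 TPM in siblings versus 23.5 and 19.3 TPM in mutants. The slc20a1b transcript read 39.3 and 42.4 TPM in siblings versus 49.3 and 53.8 TPM in mutants, a level that cannot check a lesion the labels do not describe. Because these are bulk samples, fewer cells of a type and less RNA per cell cannot be told apart.

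The genes that drew attention, capsla and smkr1, were present in the mutant libraries alone. The capsla gene, which encodes a calcyphosine-like EF-hand protein, read 0 TPM in both sibling libraries and 28.2 and 14.9 TPM in mutant libraries 1 and 2. These levels stand for at least 599 and 334 reads. A floor of 3 reads in a sibling library allows at most 0.167 and 0.159 TPM, so the lower mutant library was at least 89.2-fold higher than the larger of these floors. The gene smkr1, which encodes a small lysine-rich protein, read 0 TPM in both siblings versus 14.99 and 8.70 TPM in mutants, from at least 168 and 103 reads. Its lower mutant library was at least 27.5-fold above the larger sibling floor of 0.316 TPM. Reads of amplified cDNA without molecular identifiers are not independent molecules, and these floors cover counting error only.

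A value of 0 in both siblings with a value above 0 in both mutants was common. It held for 2760 of 30838 rows (8.95%), whereas the reverse held for 199 rows (0.645%). At a level above 1 TPM in both mutants it held for 74 rows (0.24%), of which 5 were cilium genes: capsla, smkr1, foxj1b, tekt2 and tekt3. By mean mutant level capsla was number 4 and smkr1 number 5 of the 2760 rows. Above them stood zgc:171509 at number 1, with 16.5 and 31.0 TPM in mutant libraries 1 and 2. The keratin gene krt91 at number 2 read 27.6 and 16.4 TPM there, and si:dkey-33i11.4 at number 3 read 26.2 and 17.4 TPM.

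The paralogous regulators foxj1a and foxj1b showed the same arrangement at lower levels. The foxj1a transcript read 0 and 0.0573 TPM in siblings versus 3.68 and 1.85 TPM in mutants, from 0 and at least 4 reads against at least 289 and 154. Both mutant libraries lay far above both siblings, and mutant library 1 was 1.98 times mutant library 2. It rose by 1.83 on the log2(TPM + 1) scale (SE 0.30, limma, Benjamini-Hochberg adjusted p = 0.0118). It passed the filter of a mean of 1 TPM only through the mutant libraries. Without mutant library 2 the difference was 2.18 and did not pass (limma adjusted p = 0.0853), and without mutant library 1 the gene fell below the filter. With a library left out, 1 group holds a lone library, and the spread within the groups comes from the other group alone, so a call lost or gained in this way reflects that spread as well as the difference. The foxj1b transcript read 0 TPM in both siblings versus 2.53 and 1.23 TPM in mutants. It lay below the filter, and its lower mutant library was at least 9.35-fold above the larger sibling floor of 0.132 TPM. Reads shared between the paralogs could be split by the counting.

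**Figure D1:**
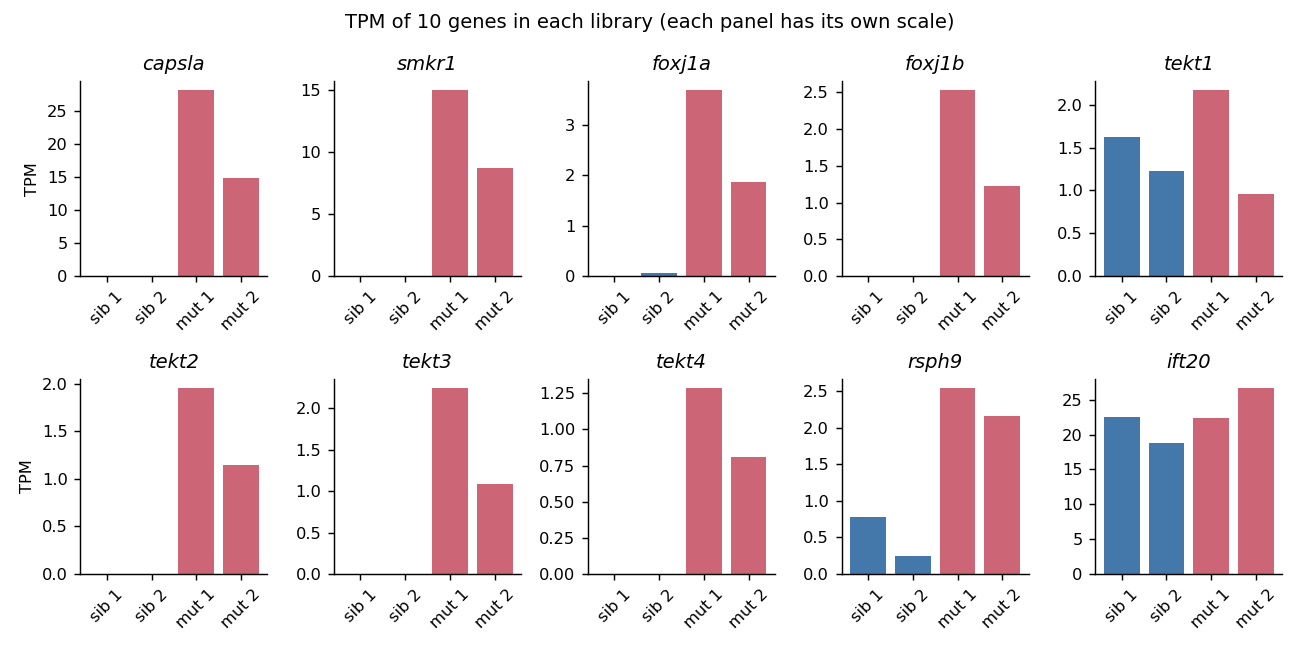
TPM (vertical axis, linear, a separate scale in each panel) of 10 genes in the 2 sibling (blue) and 2 mutant (red) libraries, 1 bar a library. The bars for capsla, smkr1, foxj1b, tekt2, tekt3 and tekt4 are at 0 in both siblings, and mutant library 1 is above mutant library 2 in all panels except ift20.

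Of the tektins, filament-like proteins inside the doublet microtubules, 3 of 4 were listed at 0 in both sibling libraries. Of all rows 8.95% were at 0 in both siblings and above 0 in both mutants. Among rows with a mean of 0.1 to 1 TPM, where these 3 lie, 45.6% were higher in both mutants. The tekt2 transcript read 0 TPM in both siblings versus 1.95 and 1.15 TPM in mutants, from at least 66 and 41 reads. The tekt3 transcript read 0 TPM in both siblings versus 2.24 and 1.08 TPM in mutants, from at least 92 and 47 reads. Their lower mutant libraries were at least 11.0-fold and 12.6-fold above the larger sibling floors. The tekt4 transcript read 0 TPM in both siblings versus 1.29 and 0.811 TPM in mutants, and its reads could be recovered only as the ratio 3 to 2. The floor these reads give, 1.52 TPM in a sibling library, lies above both mutant values, so the groups cannot be told apart by it. The tekt1 transcript differed from these, with 1.63 and 1.22 TPM in siblings versus 2.17 and 0.963 TPM in mutants. Its groups overlapped (limma adjusted p = 0.921, log2 difference 0.046, SE 0.30).

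Radial spoke genes were higher in both mutant libraries for 4 of 6 members. Of all rows 29.6% were higher in this way, with 31.3% at a mean of 1 to 10 TPM and 45.6% at 0.1 to 1 TPM. The spoke head gene rsph9 read 0.776 and 0.247 TPM in siblings versus 2.54 and 2.16 TPM in mutants. It rose by 1.17 on the log2(TPM + 1) scale (SE 0.27, limma adjusted p = 0.0253), again passing the filter only through the mutant libraries. The call ended when every row entered (limma adjusted p = 0.0763). It also ended without mutant library 1 or 2, where the differences were 1.08 and 1.25 (limma adjusted p = 0.224 and 0.168) and only the siblings gave the spread. A further spoke head gene, rsph4a, read 2.0 and 0.527 TPM in siblings versus 4.28 and 2.98 TPM in mutants. The groups did not overlap but the siblings lay far apart, and the log2 difference of 1.10 (SE 0.36) did not pass (limma adjusted p = 0.0681). Without sibling library 1, with the spread from the mutants alone, the difference was 1.59 (limma adjusted p = 0.000888), a setting in which 1855 genes were called higher and 3219 lower. The spoke stalk gene rsph3 read 0.733 and 0.191 TPM in siblings versus 1.64 and 0.881 TPM in mutants, below the filter. Among the rest, rsph10b was below 0.4 TPM throughout and higher in both mutants, rsph14 overlapped below 0.1 TPM and rsph1 was at 0 in every library.

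The 21 cfap genes divided by level. The 3 most abundant, cfap20, cfap36 and cfap61, did not differ in the direction of capsla. The inner junction gene cfap20 read 64.4 and 57.6 TPM in siblings versus 57.8 and 63.7 TPM in mutants, so the groups overlapped (limma adjusted p = 0.976, log2 difference -0.0058, SE 0.12). The cfap36 transcript read 12.8 and 19.8 TPM in siblings versus 16.9 and 15.1 TPM in mutants, also overlapping. The genes cfap61, at 2.86 and 3.81 TPM against 2.61 and 2.31 TPM, and cfap97, at 2.15 and 4.08 TPM against 1.95 and 2.04 TPM, were lower in both mutants without passing the test (limma adjusted p = 0.306 and 0.296). Without sibling library 1 the difference of cfap97 was -0.76 (limma adjusted p = 0.0161, with the spread from the mutants alone).

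In contrast, 12 cfap genes were higher in both mutant libraries, all of them below the filter. The share of all rows that were higher also varied with the mean level. It was 39.4% above 0 but under 0.1 TPM and 45.6% at 0.1 to 1 TPM, beside 19.4% at 10 TPM and over. The inner dynein arm tether gene cfap44 read 0 and 0.132 TPM in siblings versus 1.87 and 0.685 TPM in mutants, and its partner cfap43 read 0.153 and 0.115 against 0.649 and 0.465 TPM. The central apparatus gene cfap74 read 0 TPM in both siblings versus 0.745 and 0.511 TPM in mutants. Also at 0 in both siblings were cfap53, a protein of the doublet lumen needed for left-right asymmetry (1.25 and 0.790 TPM in mutants), cfap157 (0.606 and 0.644 TPM) and cfap46 (0.0621 and 0.109 TPM). For cfap53 the recovered reads allow up to 1.48 TPM in a sibling library, so its siblings cannot be told from its mutants by this floor, and for cfap46 the lower mutant library was at least 1.98-fold above the floor. For cfap157 and cfap74 the lower mutant library was at least 11.6-fold and 7.75-fold above the larger sibling floor. The other 6 of the 12 were cfap57, cfap58, cfap73, cfap99, cfap100 and cfap206. The doublet lumen genes cfap52 and cfap161 were at 0 in every library, and cfap45, cfap77 and cfap126 overlapped. These examples were named after their values were seen, except cfap44.

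Dynein genes were scarce in all libraries. Every one of the 10 heavy chain genes lay below 1 TPM in all 4 libraries, and 6 were higher in both mutants, where 39.4% of all rows under 0.1 TPM and 45.6% of those at 0.1 to 1 TPM were higher. Because these genes are long, low TPM still stood for many reads. The most abundant was dnah7, an inner arm heavy chain, with 0.182 and 0.351 TPM in siblings versus 0.664 and 0.529 TPM in mutants, from at least 41 and 83 reads against at least 177 and 149. The inner arm gene dnah3 read 0.0999 and 0.143 TPM in siblings versus 0.362 and 0.506 TPM in mutants, from at least 22 and 33 reads against at least 94 and 139. It was singled out after its values were seen. The others higher in both mutants were dnah5, dnah5l, dnah9l and dnah12, whereas dnah1, dnah2, dnah6 and dnah9 overlapped. Heavy chains with close copies, such as dnah5 and dnah5l, could share reads.

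The 4 outer arm intermediate chain genes did not move with capsla. The most abundant, dnai1.2, read 0 and 1.22 TPM in siblings versus 0.836 and 0.952 TPM in mutants. Its siblings enclosed both mutants. Its neighbour in name, dnai1.1, read 0.235 and 0.898 TPM in siblings versus 0.0997 and 0 TPM in mutants, and was lower in both. The pair dnai2a and dnai2b stayed below 0.2 TPM and overlapped.

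Intraflagellar transport genes made up much of the signal and differed little between the groups. The 14 ift genes summed to 88.0 and 100.2 TPM in siblings versus 95.5 and 90.4 TPM in mutants. Of the 11 tested, 0 rose and 0 fell by limma, where 9.91% of all genes tested rose and 18.6% fell (28.5% in either direction). At an unadjusted p under 0.05, 1 was higher (ift46). The most abundant, ift74, read 27.4 and 28.9 TPM in siblings versus 28.7 and 23.9 TPM in mutants (limma adjusted p = 0.626, log2 difference -0.099, SE 0.14). The membrane cargo gene ift20 read 22.5 and 18.8 TPM in siblings versus 22.4 and 26.7 TPM in mutants, and ift27, which encodes a small GTPase, 19.1 and 32.3 TPM against 21.5 and 18.4 TPM. All 3 overlapped between the groups. Without sibling library 1, the difference of ift27 was -0.67 (limma adjusted p = 0.00964, with the spread from the mutants alone), and without sibling library 2 it was 0.055.

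At lower levels, 5 ift genes were higher in both mutant libraries, as were 29.6% of all rows. That share was 31.3% at a mean of 1 to 10 TPM, 45.6% at 0.1 to 1 TPM and 39.4% above 0 but under 0.1 TPM. The ift46 transcript read 1.13 and 1.82 TPM in siblings versus 3.29 and 2.58 TPM in mutants (limma adjusted p = 0.0858, log2 difference 0.68, SE 0.25). Without sibling library 2, with the spread from the mutants alone, it was 0.88 (limma adjusted p = 0.00963), a setting in which 2178 genes were called higher and 2934 lower. The ift172 transcript read 0.569 and 1.61 TPM in siblings versus 1.82 and 1.77 TPM in mutants, a log2 difference of 0.47 that did not pass (limma adjusted p = 0.278) and that became 0.83 in the same setting (0.0122). The ift43 transcript, named after its values were seen, read 0 and 0.0629 TPM in siblings versus 1.06 and 0.793 TPM in mutants. The other two were ift88, below 0.1 TPM throughout, and ift122, at 1.29 and 1.08 against 1.33 and 1.35 TPM. The remaining tested genes ift22, ift52, ift57, ift80 and ift81 lay between 0.772 and 6.83 TPM with overlapping libraries, and ift140 overlapped below the filter.

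**Figure D2:**
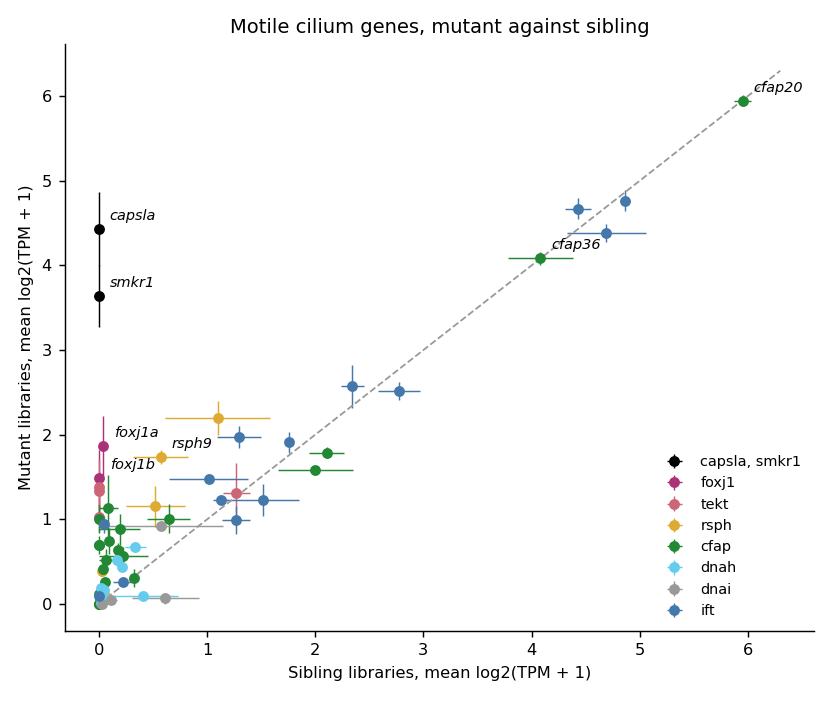
Mean log2(TPM + 1) in the 2 mutant libraries (vertical axis) against the 2 sibling libraries (horizontal axis) for the 63 genes, coloured by family. Error bars span the 2 libraries of a group and the dashed line marks equality. The abundant ift and cfap genes lie near the line, whereas capsla, smkr1, foxj1a and foxj1b stand at or near 0 on the sibling axis.

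The set did not move as 1 block with capsla and smkr1. Of the 61 genes chosen by name, 32 were higher in both mutant libraries than in both siblings, 3 were lower, 23 overlapped and 3 were at 0 throughout. The 32 include tekt4 and cfap53, whose larger sibling floors of 1.52 and 1.48 TPM lie above both mutant values. By these floors their groups cannot be told apart. Of all rows in the deposited data, 29.6% were higher and 21.6% lower in this way. The share of rows that were higher depended on the level. Among rows with a mean of 0.1 to 1 TPM it was 45.6%, beside 21 of 27 cilium genes. Among rows above 0 but under 0.1 TPM it was 39.4%, beside 5 of 12. At 1 to 10 TPM it was 31.3%, beside 6 of 14, and at 10 TPM and over 19.4%, beside 0 of 5. The share in the cilium set was thus near the background below 0.1 TPM and lay above it from 0.1 to 1 TPM. It also lay above the background at 1 to 10 TPM and below it at 10 TPM and over, on 14 and 5 genes. Lower in both mutants were 5.03%, 13.7%, 33.2% and 57.5% of all rows in these bands, from the lowest to the highest, beside 0, 1, 2 and 0 cilium genes. No test was made of these differences.

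**Figure D3:**
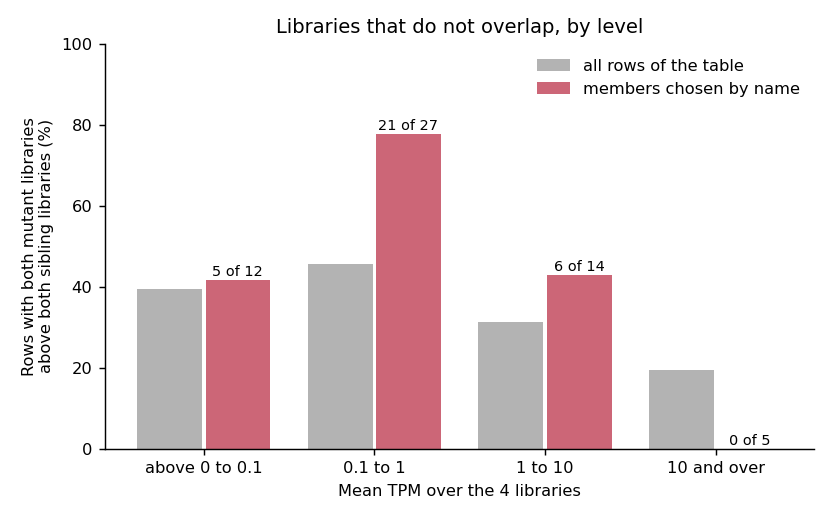
Percent of rows in which both mutant libraries lie above both sibling libraries (vertical axis), by mean TPM over the 4 libraries (horizontal axis), for all rows of the table (grey) and the cilium genes chosen by name (red, with counts). The gap is widest at 0.1 to 1 TPM, where 21 of 27 cilium genes and 45.6% of all rows were higher. The 21 include tekt4 and cfap53, whose groups cannot be told apart by the floor of 3 reads.

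Of the 61 genes, 19 passed the filter and were tested. By limma 2 rose (foxj1a and rsph9), 0 fell and 17 did not pass, beside 9.91% higher and 18.6% lower of 12073 genes tested. At an unadjusted p under 0.05, 4 were higher and 0 lower. Both calls came from genes that passed the filter only through the mutant libraries, so nothing is read from this count. With no filter, 58 of the 61 entered and 8 were higher and 0 lower, against 5.06% and 4.31% of 26105 rows. With a mean of at least 0.1 TPM, 46 entered and 11 were higher and 0 lower, against 8.58% and 9.73% of 19502. Members at 0 in both siblings, such as foxj1b, tekt2 and tekt3, reached that mean only through the mutant libraries. Nothing is therefore read from that count either. Without mutant library 1 or without mutant library 2, 0 cilium genes were called. The whole table then gave 3 and 0 genes higher and 8 and 4 lower.

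The median difference over the 58 cilium genes above 0 in any library was 0.22 on the log2(TPM + 1) scale, beside 0.023 over the 26105 such rows. Summed over all 63 genes the level was 178 and 193 TPM in siblings versus 253 and 221 TPM in mutants. Without capsla and smkr1 it was 210 and 197 TPM in mutants, 1.10 times the sibling mean instead of 1.28 times. The families differed in this respect. The tektins summed to 1.63 and 1.22 TPM in siblings versus 7.65 and 4.01 TPM in mutants, 4.09 times the sibling mean. The radial spoke genes summed to 3.55 and 1.04 against 8.86 and 6.38 TPM (3.32 times), and the heavy chains to 1.20 and 0.896 against 1.92 and 1.89 TPM (1.82 times). The cfap sums were 83.6 and 87.0 against 89.1 and 90.3 TPM (1.05 times), most of it cfap20, and the ift ratio was 0.988. The intermediate chains summed to 0.40 and 2.16 against 0.953 and 1.001 TPM (0.763 times).

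**Figure D4:**
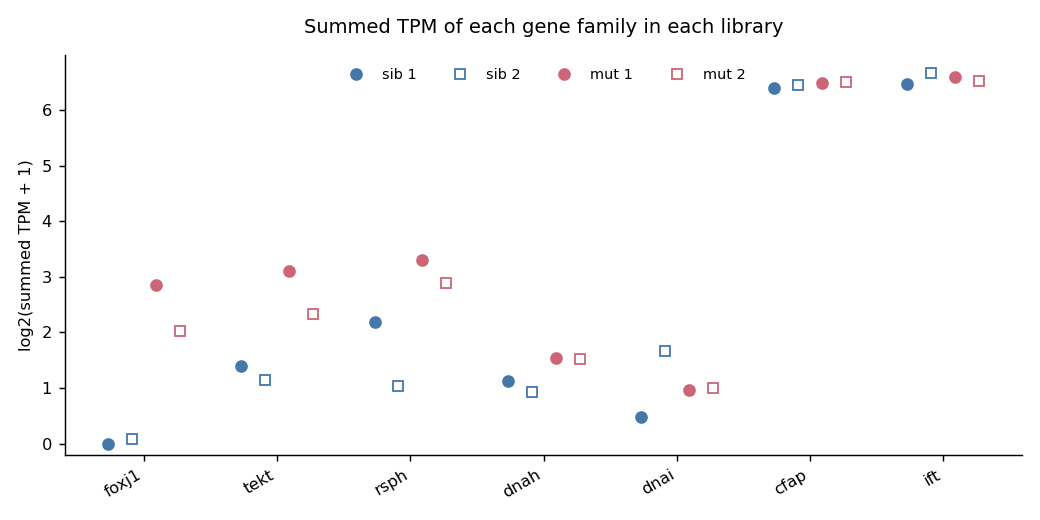
Summed level of each gene family in each library as log2(summed TPM + 1) (vertical axis) for the 2 sibling (blue) and 2 mutant (red) libraries. The foxj1, tekt, rsph, dnah and cfap sums are higher in both mutants than in both siblings, the cfap sums by little. The dnai sums overlap, and the ift sums overlap at about the same level.

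Other genes of the cilium were read from 5 lists. Among 36 listed genes of the axoneme other than the members, 26 were higher and 4 lower in both mutant libraries (background 29.6% and 21.6%). Of these 36, 21 lay below 1 TPM in every library. Among all rows with a mean above 0 but below 1 TPM, 39.4% to 45.6% were higher and 5.03% to 13.7% lower. At 1 to 10 TPM 31.3% were higher and 33.2% lower. The 26 include ccdc65, dydc2, ropn1l and ak7b, at 0 in both siblings. For these genes the larger sibling floor of 3 reads lay above the lower mutant value. Of the 10 tested, 5 rose and 0 fell by limma (also 5 and 0 at an unadjusted p under 0.05), beside 9.91% and 18.6% of all genes. However, 4 of the 5, spag6 and enkur among them, had passed the filter only through the mutant libraries. Nothing is therefore read from this count. The central apparatus gene spag6 read 0 and 0.249 TPM in siblings versus 5.02 and 2.61 TPM in mutants and rose by 2.06 (SE 0.32, limma adjusted p = 0.00993). The sperm flagellum and cilium gene enkur read 0.661 and 0.0970 TPM against 6.63 and 3.99 TPM and rose by 2.19 (SE 0.32, limma adjusted p = 0.00912). All of these libraries were apart between the groups, with mutant library 1 the highest.

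The nucleoside diphosphate kinase family gene nme5, the only one of the 5 with a sibling mean above the filter, rose from 2.73 ± 1.23 to 11.1 ± 0.262 TPM (SD, n = 2 a group; limma adjusted p = 0.00954, log2 difference 1.74, SE 0.26). Without mutant library 2, with the spread from the siblings alone, the differences were 2.43 for spag6, 2.50 for enkur and 1.76 for nme5, and none of the 3 passed (limma adjusted p from 0.0837 to 0.109). Also among the 5 was ttc25, an outer arm docking gene, at 0.299 ± 0.29 and 1.99 ± 0.0308 TPM.

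Dynein arms are assembled in the cytoplasm by dedicated factors, and of 15 such genes 8 were higher and 2 lower in both mutants (29.6% and 21.6% of all rows). The 8 include pih1d3, whose larger sibling floor of 0.341 TPM lies above both mutant values (0.193 and 0.0911 TPM). Of these 15, 9 lay below 1 TPM in every library. Among all rows with a mean above 0 but below 1 TPM, 39.4% to 45.6% were higher and 5.03% to 13.7% lower. At 1 to 10 TPM 31.3% were higher and 33.2% lower, and at 10 TPM and over 19.4% and 57.5%. Of the 5 tested, lrrc6 and ccdc103 rose and wdr92 fell, beside 9.91% and 18.6% of all genes tested. The lrrc6 transcript read 0.341 ± 0.264 and 2.27 ± 0.603 TPM (limma adjusted p = 0.0207, log2 difference 1.29, SE 0.27), passing the filter only through the mutants. The ccdc103 transcript rose from 9.50 ± 1.27 to 16.2 ± 1.45 TPM (limma adjusted p = 0.027, log2 difference 0.71, SE 0.17). The wdr92 transcript, whose product also works with general chaperone complexes, fell from 34.7 ± 4.25 to 10.5 ± 2.03 TPM (limma adjusted p = 0.00568, log2 difference -1.64, SE 0.18). The most abundant, spag1a, overlapped, with 53.6 and 94.7 TPM in siblings versus 86.5 and 71.7 TPM in mutants, and its difference without sibling library 2 was 0.55 (limma adjusted p = 0.0148, with the spread from the mutants alone). With no filter lrrc6 and ccdc103 did not pass (limma adjusted p = 0.065 and 0.0616). Without mutant library 1 or mutant library 2, 0 genes of the 5 lists were called.

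Of 8 regulators of multiciliated cell fate other than foxj1, 4 were higher and 3 lower in both mutants (29.6% and 21.6% of all rows). Among all rows with a mean above 0 but below 1 TPM, 39.4% to 45.6% were higher and 5.03% to 13.7% lower. At 1 to 10 TPM, where the 3 lower genes lie, 31.3% were higher and 33.2% lower. Of the 3 tested, 0 rose and 0 fell by limma (also 0 and 0 at an unadjusted p under 0.05). The most abundant, rfx2, a ciliary transcription factor gene, read 7.11 and 11.7 TPM in siblings versus 6.72 and 4.60 TPM in mutants (log2 difference -0.63, limma adjusted p = 0.141). The geminin family gene gmnc, an early inducer of multiciliation, was at 0 in both siblings and at 0.0845 and 0.0267 TPM in mutants. It is among the 4 higher genes, but its sibling floors of 0.0998 and 0.0953 TPM lie above both mutant values. The groups cannot be told apart by these floors. The gmnc partner mcidas overlapped, at 0.0321 and 0.643 against 0.625 and 0.463 TPM. In contrast ccno, a cyclin family gene of the same programme, read 0.221 and 0 against 1.12 and 1.14 TPM. These last values were looked up for their role and not by the naming rule.

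The remaining lists hold genes that primary cilia also use. They are to be read against 29.6% of all rows higher and 21.6% lower without overlap, and 9.91% and 18.6% of genes called. Among all rows with a mean above 0 but below 1 TPM, 39.4% to 45.6% were higher and 5.03% to 13.7% lower. At 1 to 10 TPM 31.3% were higher and 33.2% lower, and at 10 TPM and over 19.4% and 57.5%. Of 18 subunits and motors of intraflagellar transport with other symbols, 6 were higher and 4 lower in both mutants, and of the 7 tested ttc26 rose and 0 fell (1 higher and 4 lower at an unadjusted p under 0.05). It went from 4.64 ± 0.311 to 7.78 ± 0.592 TPM (limma adjusted p = 0.0417, log2 difference 0.64, SE 0.17). That call ended with no filter (limma adjusted p = 0.0719) and with a mean of at least 0.1 TPM (0.0613). Of 31 BBSome and transition zone genes 5 were higher and 6 lower, and of the 20 tested 0 rose and 2 fell by limma (3 higher and 2 lower at an unadjusted p under 0.05). The transition zone gene tctn1 fell from 5.67 ± 0.194 to 1.79 ± 0.248 TPM (limma adjusted p = 0.0102, log2 difference -1.26, SE 0.20). The basal body gene ofd1 fell from 8.22 ± 1.69 to 4.52 ± 0.499 TPM (limma adjusted p = 0.0451, log2 difference -0.73, SE 0.21), a call that ended under both scaling alternatives (0.0591 in each), with no filter (0.0961), with a mean of at least 0.1 TPM (0.0677) and without the trend (0.0546), at differences of -0.64 to -0.73.

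Within the mutant pair the cilium genes were mostly higher in library 1. Of the 32 genes chosen by name that were higher in both mutants, 25 (78.1%) read more in mutant library 1 than in mutant library 2, beside 54.1% of the 9135 such rows of the table. The ratio of mutant library 1 to mutant library 2 was 1.90 for capsla, 1.72 for smkr1, 1.98 for foxj1a, 2.05 for foxj1b, 1.70 for tekt2 and 2.07 for tekt3. It varied more among others of the 32, with 2.73 for cfap44, 1.26 for dnah7, 1.18 for rsph9, 1.02 for ift172, 0.942 for cfap157 and 0.715 for dnah3. For the ift sum it was 1.06.

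Markers of some other larval cell types, keratinocytes and the pronephros, were higher in sum in both mutant libraries. Whether such cells have a part in the result was not tested. Keratinocyte markers summed to 51.4 and 35.9 TPM in siblings versus 282 and 182 TPM in mutants, a ratio of 1.55 between mutant libraries 1 and 2. Of 12 such genes 10 were higher in both mutants (29.6% of all rows), and 7 of the 7 tested rose by limma (9.91% of all genes tested). Of these 7, 5 had a sibling mean below the filter, so nothing is read from that count. The keratinocyte markers were led by icn (43.2 and 27.6 against 179 and 113 TPM), while the epithelial marker epcam was at 0 throughout. Markers of the pronephros, whose duct and tubules carry motile cilia, summed to 1.53 and 0.926 TPM in siblings versus 8.28 and 5.32 TPM in mutants, a ratio of 1.56 between the mutant libraries. Of these 12 genes 9 were higher and 1 lower in both mutants. All but cdh17 lay below 1 TPM in every library, a range in which 39.4% to 45.6% of all rows were higher. The most abundant, the cadherin gene cdh17, read 0.661 and 0 TPM in siblings versus 4.75 and 2.74 TPM in mutants. The tubule transcription factor gene hnf1ba was at 0 throughout, and pax2a was at 0.0698 and 0 against 0.684 and 0.351 TPM. Among the 9 higher pronephros genes, enpep had a sibling floor above both mutant values. A ratio near 1.5 or more between the mutant libraries was not particular to these lists. It was 1.55 for ionocyte, 1.69 for hair cell, 1.97 for olfactory and 2.01 for floor plate and notochord sums. The HSPC, germ cell, photoreceptor and neural and glial ratios were 1.01, 0.932, 0.879 and 0.567.

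Other marker lists differed in direction, with counts to be read against 29.6% of all rows higher and 21.6% lower in both mutants. Of all rows at a mean of 0.1 to 1 TPM 45.6% were higher, and of those above 0 but under 0.1 TPM 39.4%. Ionocyte markers summed to 0.701 and 2.28 TPM in siblings versus 6.46 and 4.18 TPM in mutants, with 2 of 7 higher in both mutants. Of these 2, slc12a10.2 had a sibling floor above both mutant values. Most of the mutant sum was atp1b1b (0.241 and 0 against 4.56 and 2.99 TPM). Most of the sibling sum was foxi3a, which overlapped (0.460 and 2.16 against 1.83 and 1.08 TPM), and foxi3b was at 0 throughout. Olfactory markers went the other way, from 7.15 and 13.5 to 4.36 and 2.21 TPM, most of it s100z, and 2 of 6 were higher and 2 lower. The olfactory neuron marker ompb was at 0 throughout. Neural and glial markers summed to 17.2 and 19.6 TPM in siblings versus 9.09 and 16.0 TPM in mutants, with 3 of 9 genes higher and 3 lower and fabp7a the most abundant.

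Markers of further ciliated cell types and of germ cells were low. Their counts stand beside 29.6% of all rows higher and 21.6% lower in both mutants, and 39.4% to 45.6% higher among rows with a mean above 0 but below 1 TPM. Photoreceptor markers summed to 6.17 and 7.50 TPM in siblings versus 6.68 and 7.60 TPM in mutants, overlapping, with 4 of 11 higher and 2 lower and gnat1 the most abundant. Hair cell markers summed to 0.661 and 0.289 against 0.913 and 0.539 TPM, overlapping, with 3 of 8 higher and 1 lower, and the hair cell factor gene atoh1a was at 0 throughout. Markers of the floor plate, which also bears motile cilia, and of the notochord summed to 0 and 0.169 TPM in siblings versus 0.223 and 0.111 TPM in mutants. They were led by foxa2, with 1 of 4 higher. Germ cell markers were higher in sum in both mutants, at 0 and 0.0499 against 0.406 and 0.436 TPM, led by dnd1 with 2 of 5 higher. Among the genes counted as higher in this paragraph, prph2b, s100s and foxa2 had a larger sibling floor above the lower mutant value.

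**Figure D5:**
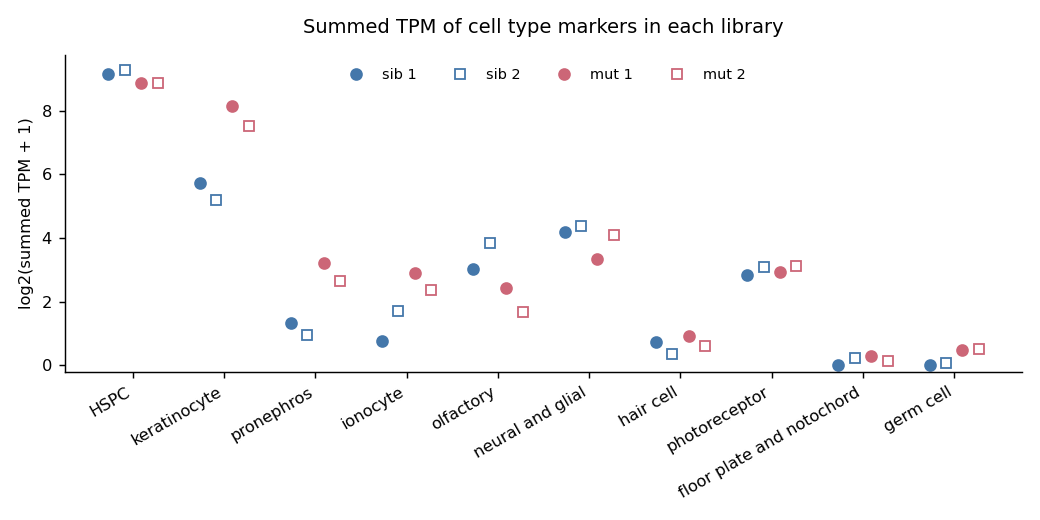
Summed level of cell type marker lists in each library as log2(summed TPM + 1) (vertical axis) for the 2 sibling (blue) and 2 mutant (red) libraries. Keratinocyte, pronephros and ionocyte sums are higher in both mutants, HSPC, olfactory and neural sums are lower in both, and photoreceptor sums overlap.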

How the data were processed

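Expression was measured in 2 sibling and 2 smu07 mutant libraries. The authors deposited TPM, which divides by gene length and sums alike in all libraries. The submitters' processing notes list the build GRCz11 and the tools DESeq2, featureCounts, FastQC and STAR, without roles. Their versions, the annotation and the use of strand are not stated. TPM keeps no depth, so the smallest whole reads behind each row were recovered from the ratios between libraries (tolerance 1e-06; 23926 of 23927 rows above 0 in at least 2 libraries were solved). They are lower bounds.

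After a filter on the mean over libraries (1 TPM or more), mutant and sibling log2(TPM + 1) values were compared by limma 3.58.1 (R 4.3.3, eBayes with a trend), and Benjamini-Hochberg adjusted p under 0.05 was called over all 12073 genes. This scale understates the change of low genes. The fit and the recovery were tested on simulated data. Rows of 2 libraries a group are called higher or lower where the groups do not overlap. No set test was made.

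Members and lists were chosen with earlier results of these data known. Genes named are members with a mean of at least 1 TPM, the 4 given by symbol, the most abundant of each family, the 5 below 1 TPM with the highest level in any library, up to 4 called members plus the top gene by level of each pathway list, and 1 leading marker per cell type. A gene that this rule names is not reported here. All 63 symbols are in the RefSeq annotation of GRCz12tu, used for names only. Alternatives were other filters, pseudocount, scaling, no trend, each library left out and a replicate block.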

Additional observations from a re-analysis of the deposited data

How the results depend on the processing

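With a library left out, the spread comes from the group that keeps both libraries, and the lone library is assumed to vary like it. As each library was left out in turn, genes higher over the whole table ranged from 0 to 2178 and genes lower from 4 to 3219 (main 1196 and 2247). Cilium genes chosen by name ranged from 0 to 7 higher and 0 to 2 lower (main 2 and 0), and the 5 pathway lists from 0 to 14 higher and 0 to 11 lower (main 8 and 3). With no filter 1124 genes were lower, 8 cilium genes and 14 pathway genes higher. With a mean of at least 0.1 TPM, 11 cilium genes and 15 pathway genes were higher. With at least 5 TPM, 778 genes, 0 cilium genes and 4 pathway genes were higher. Under quantile normalization 1316 genes were lower, and 11 cilium genes lay below both siblings without overlap in place of 3, with 25 above in place of 32. The cause was not tested. The summed ratio of 1.28 became 1.10 without capsla and smkr1 and 1.58 without the ift genes. The alternatives for the pathway lists were added after the data were seen.

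Differences near 0 changed sign. Quantile normalization gave ift74 0.13, tekt1 -0.055, cfap20 0.23 and ift122 -0.026, and median-of-ratios scaling gave cfap20 0.093. With 1 library left out, ift57 ranged from -0.62 to 0.054, ift74 from -0.22 to 0.027, cfap36 from -0.30 to 0.30, ift80 from -0.031 to 0.49, tekt1 from -0.30 to 0.39, cfap20 from -0.085 to 0.073, ift27 from -0.67 to 0.055 and spag1a from -0.26 to 0.55. Of these, ift27 passed without sibling library 1 and spag1a without sibling library 2. The median of all genes tested was -0.14, and -0.043 and -0.054 under the 2 scalings.

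With the replicate number as a block 981 genes were higher and 1682 lower, and 3 cilium genes were higher. Same-numbered libraries did not deviate together (correlation -0.046 across genes). With 2 libraries a group this cannot settle whether the numbers pair the samples. Under the block the call of rsph4a was gained (limma adjusted p = 0.0398) and those of ttc26 (0.0759) and ofd1 (0.0539) were lost.

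Members with a mean under 0.1 TPM differed in the reads behind them. The rsph14 row rested on few, with 0 and at least 2 reads in siblings against at least 1 and 3 in mutants. The dnah12 row stood for at least 1 and 9 reads in siblings against at least 43 and 42 in mutants. A low TPM alone therefore did not place a member at the limit of detection.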
